A study of Homo sapiens with 10 samples.

Results

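The cellular antioxidant programme was described at the level of H3K27ac, the acetylation of lysine 27 on histone H3 that is found at active promoters and enhancers. The genes were NFE2L2, which encodes the transcription factor NRF2, the NRF2 target genes NQO1, HMOX1, GCLC, GCLM, TXNRD1 and SRXN1, the ferroptosis inhibitor GPX4, and the ferritin chains FTH1 and FTL. Every region of the annotated count table whose gene symbol was one of these 10 genes was a member, which gave 92 of 67387 annotated regions and of 169637 regions in the full table. TXNRD1 had 30 regions, FTH1 and HMOX1 had 17 each, NFE2L2 had 10, GCLC and GPX4 had 5 each, NQO1 and FTL had 3 each, and GCLM and SRXN1 had 1 each. The annotation put 23 of them within 1 kb of a transcription start site (promoter regions). The other 69 are called distal here and comprised 29 intergenic regions, 14 in introns, 8 in exons, 2 in a 3′ UTR and 16 between 1 and 3 kb of a start. All 92 passed the filter on low counts.

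Chromatin immunoprecipitation and sequencing had been performed on H1975 cells, a lung adenocarcinoma line that carries mutant EGFR, in 3 groups of 3 biological replicates, with 1 pooled input library. The DMSO group was kept free of drug for 21 days and then given DMSO for 3 days. The osi_DTP group, drug-tolerant persister cells, received osimertinib, which blocks mutant EGFR, at 500 nM over 24 days. The osi_DTP_AZD5153_combo group (combo) received osimertinib at the same dose over 21 days and then, over 3 days, AZD5153 at 150 nM, a drug against the BET bromodomain proteins that read acetylated histones, and the labels do not say whether osimertinib was continued in those days. All groups were thus the same cell line, and only DMSO had seen no EGFR inhibitor. Because whole cultures were profiled, more cells carrying the mark and more mark per cell cannot be told apart.

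NRF2 is held at a low level in unstressed cells by KEAP1, which presents it for degradation, and is released when reactive electrophiles modify KEAP1. It then binds, with small MAF proteins, to antioxidant response elements near genes for glutathione synthesis, thioredoxin recycling, quinone and haem metabolism and iron storage. Ferroptosis is a death caused by iron-dependent lipid peroxidation, which GPX4 prevents by reducing lipid peroxides with glutathione, and drug-tolerant persister cells are known for a dependence on GPX4.

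Total counts ranged from 6263443 to 10463351 per H3K27ac library. Combo replicate 3 stood apart: its total was the lowest, 9139 regions held no read in it against 194 to 3159 in the others, and its Spearman correlation with the other libraries of its group was 0.430 and 0.354 against 0.890 between those. Promoter regions took 66.7% of the counts over annotated regions in combo replicate 3 and 59.8% in osi_DTP replicate 2, against 40.3% to 45.9% in the other 7 libraries. Member regions held 2 to 26 reads of the pooled input, and their highest H3K27ac count was 818. Levels are given as CPM, the counts scaled to a library of 1000000 reads after TMM adjustment. Of the epithelial markers, EPCAM, CDH1, KRT8, KRT18 and KRT19 each had a promoter region, at percentiles 94.2, 62.0, 99.8, 48.2 and 86.9 of all promoter regions. So did NKX2-1, NAPSA and SFTPB of the lung epithelium, at percentiles 75.2, 63.3 and 11.1. The blood markers PTPRC and CD3E had no region, nor did COL3A1 and DCN, while CDH5 and COL1A1 had a promoter region at percentile 65.2 and 64.8 and PECAM1 had 8 regions but none at a promoter. Of these markers, the SFTPB promoter fell in combo against DMSO (-1.93, adjusted p = 0.028), and COL1A1 had 1.71 in osi_DTP against DMSO (adjusted p = 0.093, or 0.011 without combo replicate 3). The part of such markers in the values below was not tested.

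The core of the antioxidant response element, TGACNNNGC, was searched on both strands of the promoter windows that RefSeq (GRCh38.p14) gives for these genes, from 250 bases before to 50 bases after a start. Of 35116 such windows in the genome, 13.3% held a match, and of the 12 windows of 8 member genes 3 did. HMOX1 and FTH1 had no window. The 3 windows with a match belong to GCLM and to both starts of TXNRD1 and are shown, 5′ to 3′ on the strand of the gene, for the 250 bases before the start, because they lie at or beside regions whose H3K27ac values are given below. Capitals mark the match.

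GCLM, chr1:93909431-93909680, minus strand: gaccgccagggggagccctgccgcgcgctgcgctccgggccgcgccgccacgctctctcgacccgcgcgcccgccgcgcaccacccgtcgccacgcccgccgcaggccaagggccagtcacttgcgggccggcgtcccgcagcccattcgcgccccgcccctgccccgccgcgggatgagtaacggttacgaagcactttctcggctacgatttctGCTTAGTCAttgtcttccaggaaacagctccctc

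TXNRD1 first start, chr12:104215529-104215778, plus strand: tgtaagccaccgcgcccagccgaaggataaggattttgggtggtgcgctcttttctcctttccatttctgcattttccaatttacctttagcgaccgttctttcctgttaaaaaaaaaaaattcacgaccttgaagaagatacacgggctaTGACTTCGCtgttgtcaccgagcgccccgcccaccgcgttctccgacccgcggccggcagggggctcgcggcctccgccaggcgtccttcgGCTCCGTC

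TXNRD1 second start, chr12:104286782-104287031, plus strand: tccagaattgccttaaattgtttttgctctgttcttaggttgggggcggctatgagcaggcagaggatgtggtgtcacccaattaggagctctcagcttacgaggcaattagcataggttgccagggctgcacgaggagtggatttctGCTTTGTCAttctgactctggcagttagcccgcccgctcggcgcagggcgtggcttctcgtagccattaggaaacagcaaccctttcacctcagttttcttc

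The match of GCLM began 34 bases before the start and lay on the opposite strand. The first TXNRD1 window held a match 99 bases before the start on the strand of the gene, and another that began 8 bases before the start on the opposite strand, whose last base falls after the printed stretch. The second TXNRD1 window held a match 102 bases before its start, on the opposite strand. A match of letters is a description of the sequence and not a measured binding site.

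Across the 92 regions, the calls lay at distal regions, with 1 exception at a TXNRD1 promoter. In osi_DTP against DMSO, 3 regions were higher, at NFE2L2 and TXNRD1, and 4 were lower, at HMOX1 and FTH1 (edgeR quasi-likelihood test over 157919 regions, Benjamini-Hochberg adjusted p under 0.05). These are 3.26% and 4.35% of the members, against 5.58% of all tested regions higher and 5.13% lower. In combo against DMSO, 13 were higher (8 of TXNRD1, 2 of NFE2L2, 2 of FTH1 and 1 of GCLC) and 4 were lower (3 of HMOX1 and 1 of FTH1), which is 14.1% and 4.35% against 9.05% and 9.01% of all regions. No member passed in combo against osi_DTP by edgeR or by DESeq2, where 0% and 0.0472% of all regions passed. By edgeR 6 members had an unadjusted p under 0.05 there. Without TMM scaling, 2 were higher and 1 lower in osi_DTP and 7 higher and 6 lower in combo. In that fit 7.75% and 15.7% of all regions passed in either direction. The all-region median (log2) in combo against DMSO moved from 0.23 to -0.02. The 2 comparisons with DMSO share the same control libraries.

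Split by class, none of the 23 promoter regions passed in osi_DTP against DMSO, nor did any by DESeq2 or at an unadjusted p under 0.05. In combo against DMSO 1 passed (2 by DESeq2). Of all promoter regions 4.63% and 8.51% passed by edgeR, and 7.67% and 12.9% by DESeq2. Of the 69 distal regions 7 and 16 passed, against 19.6% and 29.3% of all distal annotated regions. The median log2 fold change of the promoter regions was 0.45 in osi_DTP and 0.83 in combo, beside 0.35 and 0.42 over all promoter regions. Without combo replicate 3 the combo median was 0.39, beside -0.0053 over all promoter regions. With both promoter-rich libraries left out, 6 promoter regions were higher in combo against DMSO (3 of TXNRD1 and 1 each of GCLC, FTH1 and FTL) and 1, of GCLM, was lower in osi_DTP, while 27.4% and 15.2% of all promoter regions passed. For the distal regions the medians were 0.33 and 0.61, beside -0.04 and 0.03 over all distal annotated regions.

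**Figure D1:**
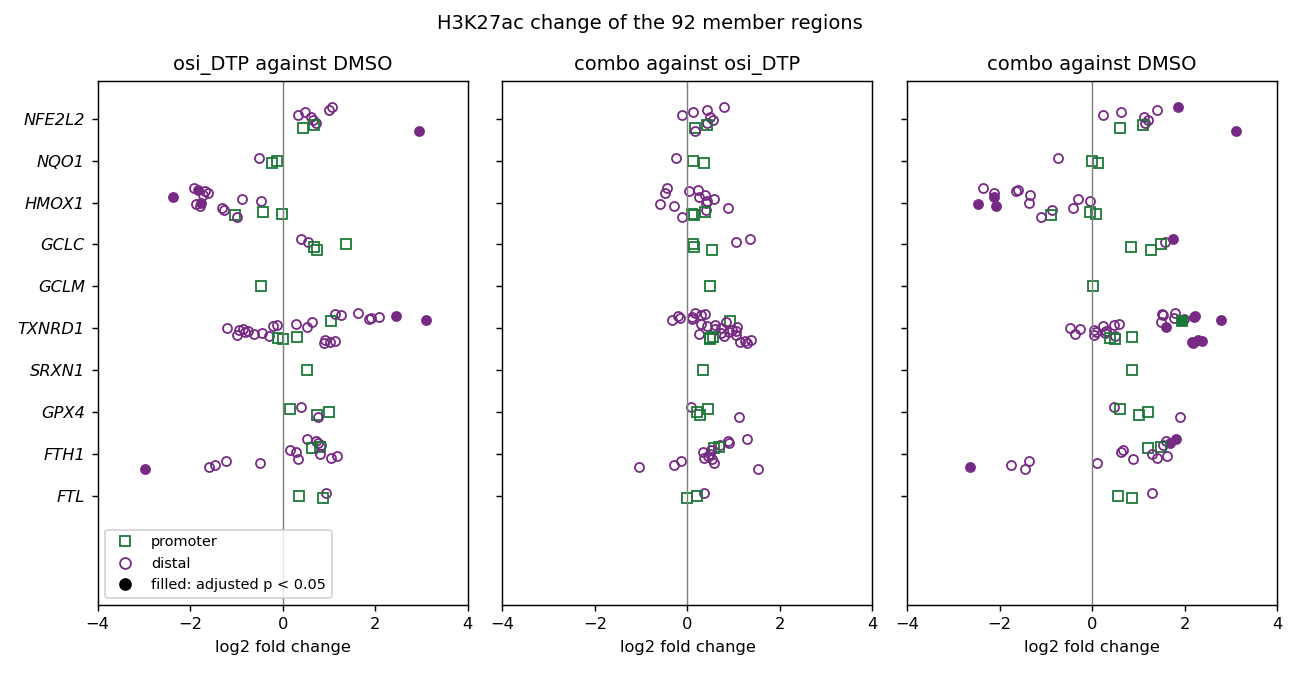
Log2 fold change of each of the 92 member regions, by gene on the vertical axis, in 3 panels for osi_DTP against DMSO, combo against osi_DTP and combo against DMSO. Squares are promoter regions and circles distal regions, ordered by position within a gene, and filled symbols have an adjusted p under 0.05: 7 in the first panel, 0 in the second and 17 in the third.

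These counts rested on single libraries. Without combo replicate 3, 7 members were higher and 15 lower in osi_DTP against DMSO, and 26 were higher and 11 lower in combo against DMSO, while the shares of all regions rose to 14.2%, 12.7%, 18.4% and 17.3% in that order. Still 0 members passed in combo against osi_DTP in that fit, where 0.123% of all regions did. When osi_DTP replicate 2 was left out as well, an alternative chosen after seeing the data, 26 passed in osi_DTP against DMSO (26.9% of all regions in either direction), 53 in combo against DMSO (42.6%), and 2 were higher in combo against osi_DTP (1.13% higher). In the other direction, the 7 calls in osi_DTP against DMSO became 0 without DMSO replicate 2 or 3, 1 without osi_DTP replicate 2 or 3 and 3 without osi_DTP replicate 1, where the share of all regions was 0.701%, 1.94%, 3.01%, 2.75% and 5.19% in that order. The 17 in combo against DMSO became 1 without DMSO replicate 2 or 3, 5 without combo replicate 1 and 11 without DMSO replicate 1 or osi_DTP replicate 1, with 5.18%, 6.14%, 10.2%, 10.6% and 14.3% of all regions. Of the 24 calls in both comparisons, 1 held in each of the 9 fits that left out a library, and the highest adjusted p of a call over these fits lay between 0.039 and 0.228. With the replicate number as a block, 13 members (14.1%) passed in osi_DTP against DMSO instead of 7, beside 10.4% of all regions.

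With all libraries, none of the strongest promoter regions of the 10 genes passed in any comparison. The strongest promoter region of NFE2L2 (chr2:177263859-177264360) had 33.0, 41.7 and 36.1 CPM in DMSO, 34.7, 113 and 31.2 in osi_DTP, and 37.9, 45.9 and 155 in combo, in order of replicate number. The 2 high values belong to the libraries with the high promoter share, and without them the 7 others lay between 31.2 and 45.9. Over the 23 promoter regions, osi_DTP replicate 2 was the highest of its group in 20 and combo replicate 3 in 14, and these libraries were the 2 highest of all 9 in 12. Over the 69 distal regions combo replicate 3 was instead the lowest of its group in 45. The part of this imbalance in the promoter values was not tested beyond leaving these libraries out.

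**Figure D2:**
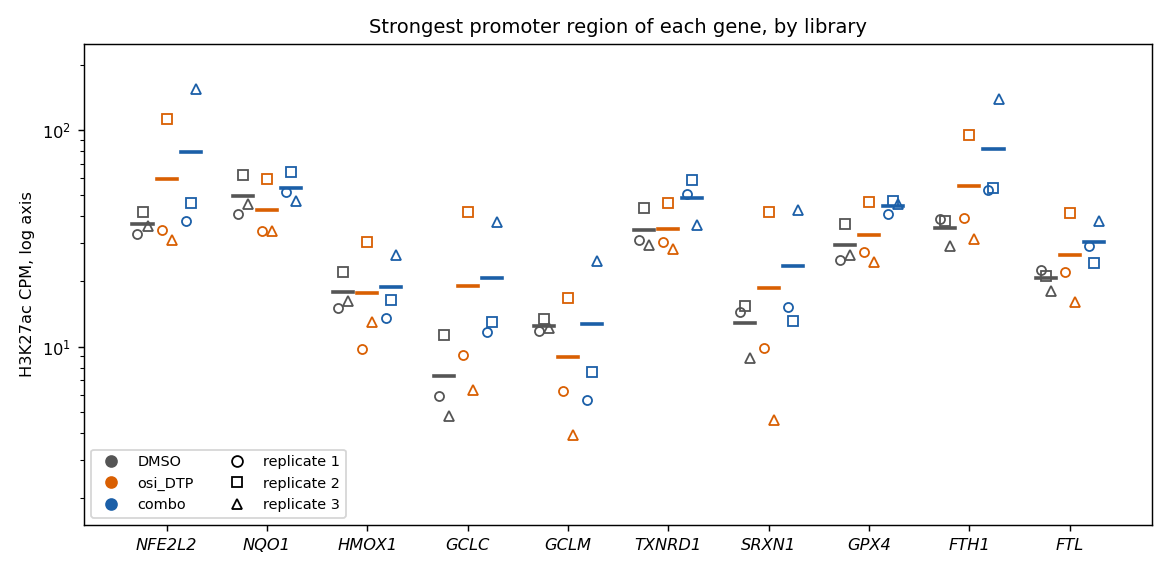
CPM (log axis) at the strongest promoter region of each of the 10 genes, with 1 symbol per library (colour for the group, shape for the replicate number) and a bar at the mean of each group of 3. The squares of osi_DTP and the triangles of combo, which are osi_DTP replicate 2 and combo replicate 3, sit highest in their groups at 10 and at 7 of the 10 genes.

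NFE2L2 had a region called higher than DMSO on each side of its promoter, upstream in osi_DTP and combo and inside the gene in combo alone. The region chr2:177266614-177267115, 2137 bases upstream of the RefSeq 5′ end and in no RefSeq gene, had 1.98, 0.922 and 0.796 CPM in DMSO, 4.74, 9.09 and 15.3 in osi_DTP, and 5.26, 22.4 and 4.60 in combo. The 3 DMSO libraries, with 8 to 22 reads each, were below all 6 drug-treated libraries. The log2 fold change was 2.96 ± 0.74 (SE, adjusted p = 0.018) in osi_DTP and 3.11 ± 0.74 (adjusted p = 0.0094) in combo. Within the gene, the intronic region chr2:177239283-177239784, 25194 bases after the 5′ end, had 2.16, 2.56 and 3.38 CPM in DMSO, 3.41, 5.23 and 8.49 in osi_DTP and 7.95, 12.7 and 8.82 in combo. It rose in combo against DMSO (1.86 ± 0.56, adjusted p = 0.029), a call lost in 5 of these fits, and had 1.08 ± 0.55 (adjusted p = 0.23) in osi_DTP against DMSO.

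The 7 NFE2L2 regions after the start, from 2.5 to 25.2 kb into the gene, all had a positive log2 fold change in both comparisons with DMSO, with medians of 0.65 in osi_DTP and 1.13 in combo. Their summed level was 73.7 to 97.6 CPM in DMSO, 94.2 to 160 in osi_DTP, 155 and 217 in combo replicates 1 and 2, and 55.2 in combo replicate 3. Of all distal annotated regions, 13.8% were higher in combo against DMSO with all libraries and 24.9% without combo replicate 3. Of the 7, 1 and 4 passed there. The strongest of them, chr2:177243040-177243541, which was the leading distal region of the gene, had a log2 fold change of 0.33 and 0.23 (adjusted p = 0.749 and 0.805). The leading promoter region itself had 0.69 ± 0.61 (adjusted p = 0.54) in osi_DTP and 1.11 ± 0.62 (adjusted p = 0.23) in combo, and the first of these became -0.14 when both promoter-rich libraries were left out.

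NQO1, a quinone reductase that is widely used as a readout of NRF2, had no region past the threshold. Its strongest promoter region (chr16:69726913-69727414, within NQO1-DT, 603 bases upstream of the 5′ end) had 41.2, 62.1 and 45.7 CPM in DMSO, 34.3, 59.2 and 34.0 in osi_DTP, and 51.6, 63.8 and 47.1 in combo. The 3 groups overlapped. The log2 fold change was -0.22 ± 0.47 in osi_DTP and 0.13 ± 0.47 in combo against DMSO (adjusted p = 0.83 and 0.89). The other promoter region and the exonic distal region 15262 bases after the start had between -0.75 and 0.00.

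HMOX1, the haem oxygenase that frees iron from haem, had lower H3K27ac upstream of its start, while none of its promoter regions passed. The 13 regions between 15.4 and 3.5 kb upstream of its 5′ end (chr22:35365399-35377886), which lie in no RefSeq gene, summed to 108, 150 and 157 CPM in DMSO, 54.0, 70.0 and 60.5 in osi_DTP, and 68.2, 90.4 and 89.3 in combo. All 3 DMSO libraries were above all 6 drug-treated ones on this scale. When all 14 distal regions of the gene were summed and scaled within the distal class, combo replicate 3 had 153 and lay within the DMSO range of 119 to 167. The log2 fold change was negative at each of the 13 in both comparisons, with medians of -1.73 in osi_DTP and -1.60 in combo. Peaks were called in all 13 regions in each DMSO library, in 4, 4 and 7 of them in osi_DTP, and in 5, 5 and 6 in combo.

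Of these HMOX1 upstream regions, 5 passed in at least 1 comparison. The region chr22:35369994-35370495 fell in both, from 4.50, 4.30 and 7.86 CPM in DMSO to 1.04, 0.275 and 1.80 in osi_DTP and 0.894, 0.923 and 2.11 in combo, with 42 to 79 reads per DMSO library and 2 to 18 in the others. Its log2 fold change was -2.37 ± 0.68 (adjusted p = 0.033) in osi_DTP and -2.12 ± 0.68 (adjusted p = 0.039) in combo. In osi_DTP against DMSO, chr22:35366037-35366538 (-1.84, adjusted p = 0.043) and chr22:35372906-35373407 (-1.76, adjusted p = 0.043) also fell. In combo against DMSO, chr22:35373727-35374228 (-2.47, adjusted p = 0.015) and chr22:35375314-35375815 (-2.08, adjusted p = 0.033) did. Without combo replicate 3, 11 of the 13 passed in osi_DTP and 9 in combo, all lower, beside 21.9% of all distal annotated regions lower in each. The counts were the same with osi_DTP replicate 2 left out too. There 9366 and 10272 of 43091 distal annotated regions were lower. Combo against osi_DTP gave a median log2 fold change of 0.25 over the 13, with none past the threshold in any of these fits.

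The level within the HMOX1 upstream stretch was uneven. Its strongest region, chr22:35372082-35372583, had 30.6, 42.9 and 33.7 CPM in DMSO, 21.1, 38.6 and 18.2 in osi_DTP and 25.8, 37.1 and 41.2 in combo, and held a peak in all 9 libraries. Its log2 fold change was -0.46 ± 0.50 in osi_DTP and -0.04 ± 0.49 in combo. The strongest promoter region, chr22:35380999-35381500, had 15.1, 22.0 and 16.2 CPM in DMSO, 9.76, 30.4 and 12.98 in osi_DTP and 13.6, 16.5 and 26.4 in combo, with a log2 fold change of -0.01 ± 0.55 and 0.08 ± 0.55. The promoter value had no stable sign: it ranged from -0.59 to 0.38 in osi_DTP and from -0.25 to 0.27 in combo when single libraries were left out.

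**Figure D3:**
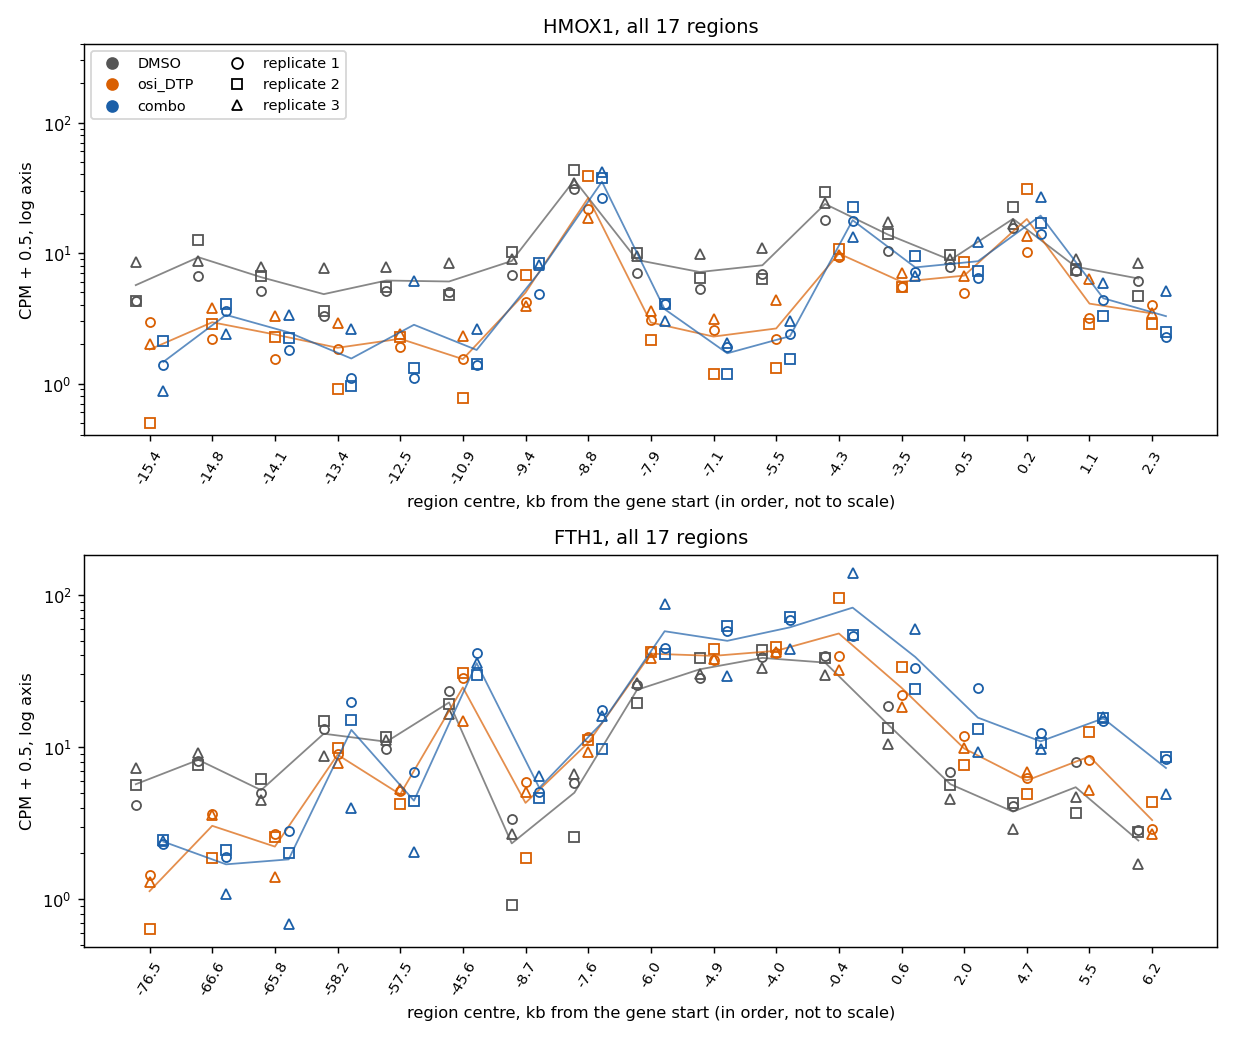
CPM plus 0.5 (log axis) at the 17 regions of HMOX1 (top) and the 17 of FTH1 (bottom), in order of distance from the RefSeq 5′ end in kb (not to scale; negative values are upstream), with 1 symbol per library and lines through the group means. At HMOX1 the grey DMSO symbols lie above the drug-treated ones over most of the upstream stretch, and at FTH1 they lie above them at the farthest upstream regions and below them after the start.

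Glutamate-cysteine ligase is the rate-limiting enzyme of glutathione synthesis. GCLC, its catalytic subunit, had 1 region that rose in combo against DMSO. This was its strongest distal region, chr6:53465169-53465670, which lies 79682 bases after the 5′ end within the antisense gene GCLC-AS1. It had 8.27, 6.25 and 4.98 CPM in DMSO, 11.8, 6.75 and 6.99 in osi_DTP, and 29.8, 21.0 and 14.2 in combo. The 3 combo libraries were above the 6 others. The log2 fold change was 1.74 ± 0.55 (adjusted p = 0.035) in combo and 0.39 ± 0.54 (adjusted p = 0.72) in osi_DTP. The promoter region at the start (chr6:53544651-53545152) had 5.93, 11.3 and 4.78 in DMSO, 9.10, 41.9 and 6.29 in osi_DTP and 11.7, 13.03 and 37.6 in combo, with adjusted p = 0.24 and 0.16. A second promoter region, chr6:53548163-53548664, had 1.27 ± 0.58 (adjusted p = 0.14) in combo against DMSO and passed without combo replicate 3 (1.38, adjusted p = 0.037).

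GCLM, the modifier subunit, had a single region, chr1:93908710-93909211, centred 470 bases after the start whose upstream sequence is printed above. It had 11.8, 13.4 and 12.1 CPM in DMSO, 6.26, 16.8 and 3.89 in osi_DTP and 5.66, 7.61 and 24.9 in combo. The 2 promoter-rich libraries were above the 3 DMSO libraries, and the 4 others of the drug-treated groups were below them. The log2 fold change was -0.48 ± 0.65 in osi_DTP and 0.02 ± 0.65 in combo (adjusted p = 0.72 and 0.99). With both promoter-rich libraries left out it was -1.26 ± 0.42 (adjusted p = 0.0235) and -0.83 (adjusted p = 0.10).

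TXNRD1, the thioredoxin reductase that keeps thioredoxin reduced, had the most regions. Beside 19.6% and 29.3% of all distal annotated regions, 2 (7.69%) and 7 (26.9%) of its 26 distal regions passed in osi_DTP and combo against DMSO. A stretch of 8 regions from 38.4 to 32.2 kb upstream of its first start (chr12:104177122-104183782), of which the first 2 overlap LINC02385, summed to 54.6, 21.1 and 11.6 CPM in DMSO, 142, 94.9 and 70.9 in osi_DTP, and 171, 109 and 41.2 in combo. All 3 osi_DTP libraries were above DMSO, while combo replicate 3 fell between the DMSO libraries. Each of the 8 had a positive log2 fold change in both comparisons, with medians of 1.90 and 1.89. Peaks were called in 8, 4 and 0 of the 8 in DMSO, in all 8 in each osi_DTP library, and in 8, 8 and 7 in combo.

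Within this TXNRD1 stretch, chr12:104183281-104183782 rose in both comparisons. It had 2.97, 0.922 and 0.995 CPM in DMSO, 22.0, 10.5 and 9.99 in osi_DTP and 18.3, 9.34 and 6.13 in combo, without overlap of DMSO and the rest, and a log2 fold change of 3.10 ± 0.67 (adjusted p = 0.0098) and 2.78 ± 0.67 (adjusted p = 0.0099). The region chr12:104179561-104180062 was called in osi_DTP (2.44, adjusted p = 0.0499) and chr12:104180775-104181276 in combo (2.20, adjusted p = 0.049). Without combo replicate 3, 6 of the 8 passed in osi_DTP and all 8 in combo, beside 19.4% and 24.9% of all distal annotated regions higher.

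Both starts of TXNRD1 had a promoter region. At the first start, the promoter region chr12:104215812-104216313 had 13.7, 13.5 and 9.85 CPM in DMSO, 18.1, 49.8 and 8.39 in osi_DTP, and 34.3, 25.0 and 84.1 in combo. It was the single promoter region of the 23 that passed, in combo against DMSO (1.95 ± 0.65, adjusted p = 0.0465), and all 3 combo libraries were above DMSO. This call was lost without combo replicate 3 (1.26, adjusted p = 0.073) and with the replicate block (adjusted p = 0.086). The strongest promoter region, at the second start (chr12:104286954-104287455), had 31.0, 43.6 and 29.4 in DMSO, 30.3, 46.1 and 28.2 in osi_DTP and 50.8, 58.7 and 36.4 in combo. Its log2 fold change was 0.01 ± 0.48 and 0.49 ± 0.48 (adjusted p = 0.99 and 0.52). With both promoter-rich libraries left out, both the first (1.33, adjusted p = 0.0029) and the second start (0.74, adjusted p = 0.036) rose in combo against DMSO. The difference between the starts was not tested.

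After the second TXNRD1 start, 4 regions from 74.7 to 77.6 kb (chr12:104290193-104293592) all rose in combo against DMSO, by log2 fold changes of 2.16 to 2.37 with adjusted p from 0.011 to 0.015. At the first of them, chr12:104290193-104290694, the values were 1.89, 1.43 and 1.79 CPM in DMSO, 3.70, 3.58 and 2.40 in osi_DTP and 11.9, 8.07 and 4.98 in combo, and the 3 groups did not overlap. The summed level of the 4 was 5.02 to 7.73 in DMSO, 10.9 to 14.4 in osi_DTP and 20.3 to 40.9 in combo. In osi_DTP against DMSO their median was 0.97 and none passed. The intronic region chr12:104220853-104221354 also rose in combo against DMSO (1.58 ± 0.52, adjusted p = 0.041), from 7.46, 5.02 and 5.08 to 21.4, 16.03 and 15.3. The leading distal region, chr12:104219692-104220193, also lay in an intron. It had 23.3, 38.7 and 24.1 CPM in DMSO, 23.4, 29.7 and 21.9 in osi_DTP and 44.2, 52.7 and 4.02 in combo. Its log2 fold change was -0.20 ± 0.66 and 0.23 ± 0.66 (adjusted p = 0.90 and 0.85). With both promoter-rich libraries left out it rose in combo against DMSO (0.83, adjusted p = 0.024).

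The 9 TXNRD1 regions between 40.1 and 66.1 kb, in introns and exons before the second start and in part within TXNRD1-AS1, had the other sign in osi_DTP. All 9 had a negative log2 fold change in osi_DTP against DMSO, with a median of -0.81, and all 9 a positive one in combo against osi_DTP, with a median of 0.78. None passed with all libraries. With both promoter-rich libraries left out, chr12:104276273-104276774 (1.61 ± 0.40, adjusted p = 0.037) and chr12:104277383-104277884 (1.62 ± 0.41, adjusted p = 0.040) were the 2 members higher in combo than in osi_DTP. The former had 9.80, 17.4 and 13.7 CPM in DMSO, 8.25, 9.09 and 7.09 in osi_DTP, and 22.7, 22.4 and 5.17 in combo.

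**Figure D4:**
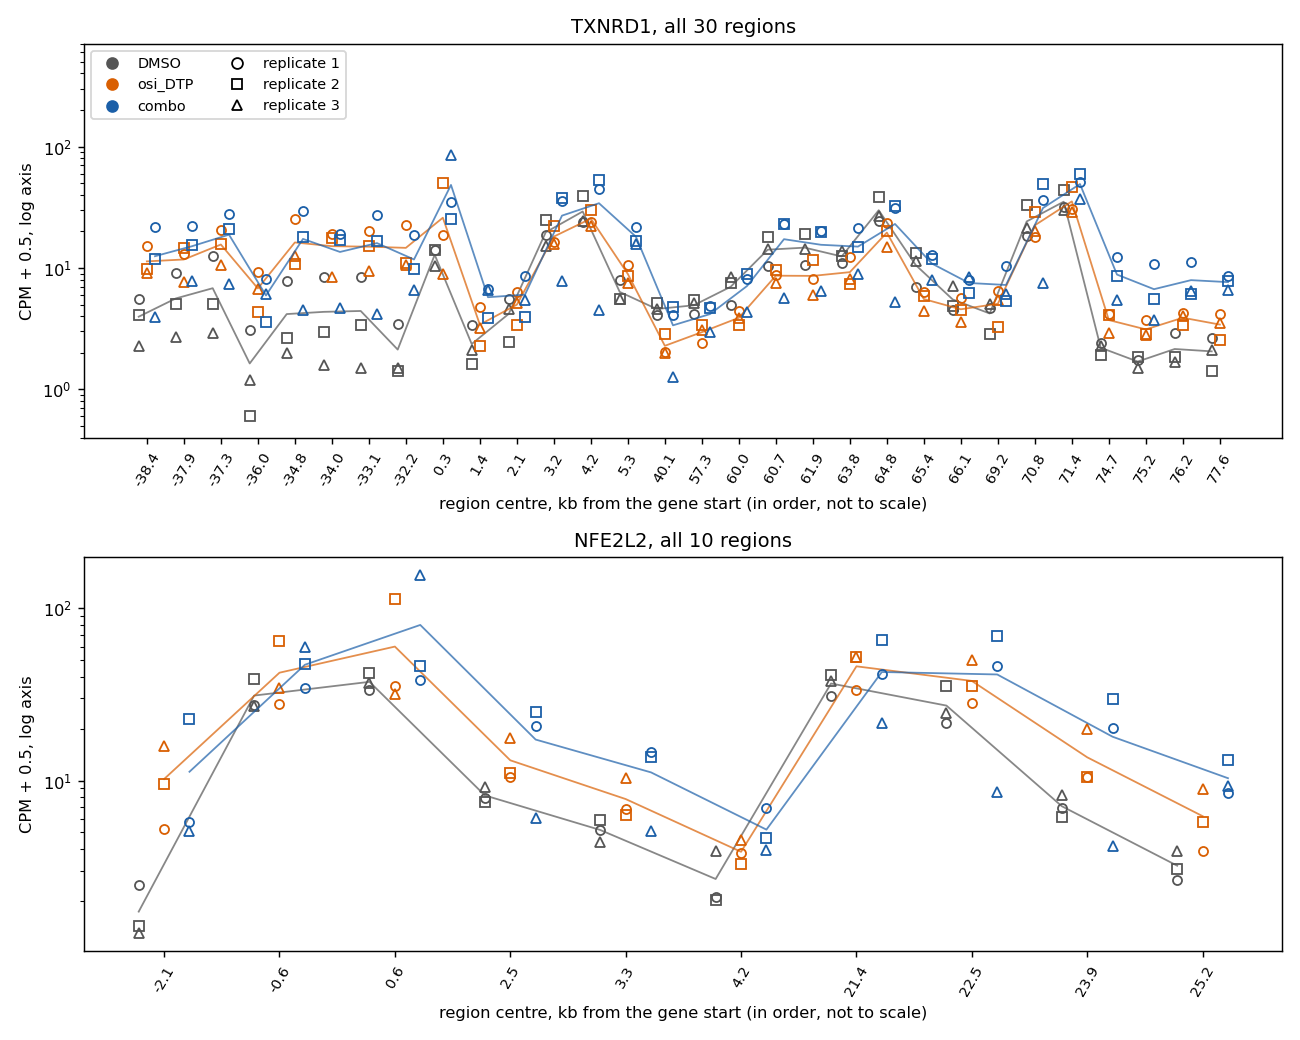
CPM plus 0.5 (log axis) at the 30 regions of TXNRD1 (top) and the 10 of NFE2L2 (bottom), in order of distance in kb from the RefSeq 5′ end, which is the first start of TXNRD1 (not to scale; negative values are upstream), with 1 symbol per library and lines through the group means. The DMSO line runs below both others over the 8 upstream and the last 4 TXNRD1 regions, and combo replicate 3 (triangles) lies below its group at most NFE2L2 regions inside the gene.

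SRXN1, which restores overoxidised peroxiredoxins, had 1 region, chr20:653076-653577, over its start. It had 14.5, 15.4 and 8.86 CPM in DMSO, 9.86, 41.7 and 4.59 in osi_DTP, and 15.2, 13.2 and 42.5 in combo, so that the promoter-rich libraries were again the highest. The log2 fold change was 0.53 ± 0.71 and 0.87 ± 0.71 (adjusted p = 0.71 and 0.44), and the first became -0.80 (adjusted p = 0.14) with those libraries left out.

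GPX4 had 5 regions around its start and none passed. The leading promoter region, chr19:1102594-1103095, had 25.1, 36.7 and 26.6 CPM in DMSO, 27.4, 46.4 and 24.5 in osi_DTP, and 41.1, 46.8 and 45.8 in combo. The 3 combo libraries were above DMSO but overlapped osi_DTP, and the log2 fold change was 0.15 ± 0.48 and 0.60 ± 0.48 (adjusted p = 0.89 and 0.42). At the region over the start, chr19:1103962-1104463, 7 libraries lay between 16.3 and 23.4 and the promoter-rich ones at 67.3 and 86.4. The leading distal region, chr19:1101838-1102339, had 30.5, 38.7 and 26.5 CPM in DMSO, 31.9, 61.3 and 32.1 in osi_DTP and 41.6, 43.5 and 47.7 in combo. Its log2 fold change was 0.39 ± 0.48 and 0.47 ± 0.48 (adjusted p = 0.68 and 0.54). All 5 regions had a positive log2 fold change in both comparisons with DMSO, from 0.15 to 1.89, and without combo replicate 3 the 3 promoter regions had 0.57, 0.07 and -0.17 in combo.

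The ferritin heavy chain gene FTH1, whose product oxidises iron for storage, had calls with all libraries that were higher after its start and lower far upstream. The 4 regions from 2.0 to 6.2 kb after the 5′ end, which overlap the neighbouring gene BEST1, summed to 19.8, 14.3 and 11.8 CPM in DMSO, 27.2, 27.5 and 22.6 in osi_DTP, and 57.7, 46.0 and 37.8 in combo, and the 3 groups did not overlap. Of these, chr11:61961218-61961719 (1.81 ± 0.57, adjusted p = 0.035) and chr11:61962643-61963144 (1.67 ± 0.52, adjusted p = 0.034) rose in combo against DMSO. The latter had 3.60, 3.79 and 2.39 CPM in DMSO, 5.78, 4.41 and 6.39 in osi_DTP and 11.8, 10.2 and 9.20 in combo. All 4 passed in combo against DMSO without combo replicate 3, where 24.9% of all distal annotated regions were higher. None passed in osi_DTP against DMSO, where their median was 0.74. The leading distal region of FTH1, chr11:61971356-61971857, lay 3972 bases upstream of the 5′ end. It had 38.3, 42.9 and 32.7 CPM in DMSO, 41.0, 44.6 and 41.3 in osi_DTP and 67.6, 70.6 and 43.7 in combo. Its log2 fold change was 0.16 ± 0.46 and 0.67 ± 0.46 (adjusted p = 0.88 and 0.33).

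The far upstream FTH1 regions lay 57.5 to 76.5 kb from the 5′ end and were assigned to FTH1 as the gene with the nearest start. The region chr11:62043919-62044420 had 3.69, 5.12 and 6.77 CPM in DMSO, 0.948, 0.138 and 0.799 in osi_DTP, and 1.79, 1.96 and 1.92 in combo. It fell in osi_DTP against DMSO (-2.97 ± 0.67, adjusted p = 0.011), where the osi_DTP libraries held 1 to 10 reads, and had -1.45 (adjusted p = 0.11) in combo. The region chr11:62033947-62034448 had 7.55, 7.07 and 8.56 in DMSO, 3.13, 1.38 and 3.10 in osi_DTP and 1.39, 1.61 and 0.575 in combo. It fell in combo against DMSO (-2.64 ± 0.60, adjusted p = 0.0074), the single call that held whichever library was left out, and had -1.59 (adjusted p = 0.078) in osi_DTP. With both promoter-rich libraries left out, 10 distal FTH1 regions were higher and 2 lower in combo against DMSO. In osi_DTP against DMSO 3 were higher and 3 lower. In that fit, of 43091 distal annotated regions, 13306 were higher and 10272 lower in combo, and 8645 higher and 9366 lower in osi_DTP. The leading distal region was among those higher in combo (0.94, adjusted p = 0.0055).

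At the FTH1 promoter, chr11:61967769-61968270 had 38.8, 38.2 and 29.1 CPM in DMSO, 39.3, 94.9 and 31.4 in osi_DTP, and 52.9, 54.0 and 139 in combo (0.64 ± 0.55 and 1.21 ± 0.55, adjusted p = 0.52 and 0.14). All 3 combo libraries exceeded DMSO. The light chain gene FTL had 3 regions and none passed with all libraries. Its leading promoter region, chr19:48963842-48964343, had 22.7, 21.3 and 18.1 in DMSO, 22.2, 41.3 and 16.1 in osi_DTP, and 29.0, 24.5 and 38.1 in combo. The promoter region inside the gene, chr19:48965670-48966171, was the more even, with 14.3, 10.2 and 7.57 in DMSO, 19.4, 22.9 and 16.4 in osi_DTP and 19.6, 18.8 and 19.5 in combo. There the drug-treated libraries were all above DMSO, and the log2 fold change was 0.87 ± 0.50 (adjusted p = 0.30) and 0.85 ± 0.50 (adjusted p = 0.26). It rose in combo with both promoter-rich libraries left out (0.91, adjusted p = 0.035). The distal region of FTL, chr19:48962392-48962893, had 9.08, 5.22 and 4.98 in DMSO, 8.63, 21.1 and 7.59 in osi_DTP and 6.95, 5.42 and 35.6 in combo. Its log2 fold change was 0.94 ± 0.70 and 1.30 ± 0.70 (adjusted p = 0.44 and 0.22). Without combo replicate 3 the latter was -0.06 (adjusted p = 0.93).

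Counts were also summed over all promoter regions or all distal regions of a gene, and scaled within that class. On promoter sums, no member passed in osi_DTP against DMSO (3 of 10 had an unadjusted p under 0.05), where 6.15% of 12295 genes did, and none in combo against osi_DTP, where 0% did (2 unadjusted). In combo against DMSO, GCLC (0.96 ± 0.25, adjusted p = 0.032) and FTH1 (0.79 ± 0.19, adjusted p = 0.022) rose, against 13.9% of genes called. The FTH1 promoter sum was 70.1, 48.7 and 50.2 CPM in DMSO and 97.1, 84.2 and 112 in combo. The count of 2 was 0 without DMSO replicate 3 or combo replicate 1 (4.20% and 8.17% of genes). It was 1 without DMSO replicate 1 or 2 or combo replicate 2 (8.74%, 4.60% and 9.64% of genes). It was 4 without combo replicate 3, when TXNRD1 (0.82, adjusted p = 0.00945) rose and GCLM (-0.96, adjusted p = 0.033) fell as well and 24.7% of genes passed. In that fit GCLM also fell in osi_DTP against DMSO (-0.93, adjusted p = 0.031) and TXNRD1 rose in combo against osi_DTP (0.86, adjusted p = 0.042), where 14.4% and 2.05% of genes passed.

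On distal sums, 8 members had a value. HMOX1 fell in osi_DTP against DMSO (-1.07 ± 0.34, adjusted p = 0.037), the 1 of 8 that passed, against 30.4% of 9382 genes, and none passed in combo against osi_DTP (0% of genes and 2 members at an unadjusted p under 0.05). In combo against DMSO, GCLC (1.79 ± 0.42, adjusted p = 0.0069), FTH1 (0.93 ± 0.27, adjusted p = 0.020) and TXNRD1 (0.79 ± 0.29, adjusted p = 0.047) rose, 3 of 8 against 39.4% of genes. HMOX1 had -0.50 (adjusted p = 0.27) there, and its combo sums were 64.1, 72.9 and 153 CPM against 119 to 167 in DMSO. Without combo replicate 3 it fell (-1.03, adjusted p = 0.0023), NFE2L2 rose in both comparisons with DMSO (0.67 and 0.99, adjusted p = 0.024 and 0.0050), and 5 of 8 members passed in combo against DMSO, while 48.9% of genes passed in osi_DTP and 52.6% in combo. The 3 calls in combo became 1 without DMSO replicate 2 or 3 (24.8% and 25.7% of genes). They became 2 without DMSO replicate 1 or combo replicate 1 (33.6% and 34.9% of genes) or any osi_DTP replicate (35.7% to 36.3%). The HMOX1 call in osi_DTP was lost without any 1 of the DMSO or osi_DTP libraries, where 16.8% to 26.2% of genes passed.

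**Figure D5:**
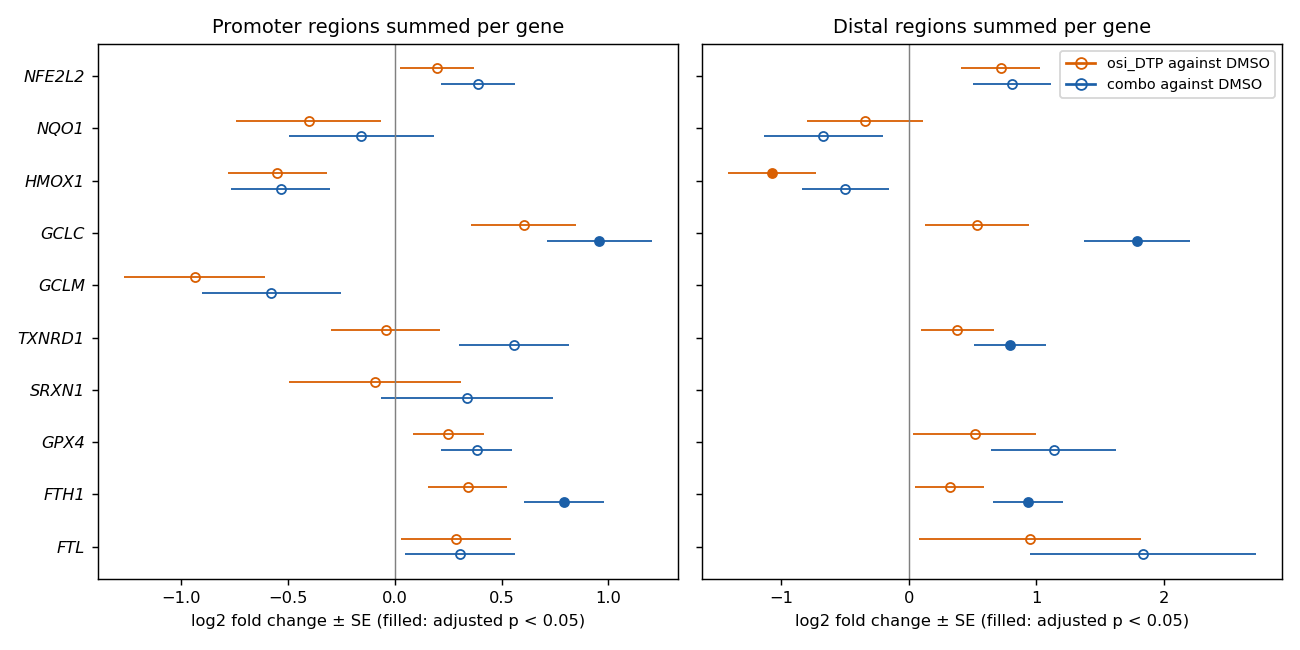
Log2 fold change ± SE of the counts summed over the promoter regions (left, 10 genes) and the distal regions (right, 8 genes) of each member, in osi_DTP (orange) and combo (blue) against DMSO. Filled symbols have an adjusted p under 0.05: GCLC and FTH1 on the left, HMOX1 in osi_DTP and GCLC, TXNRD1 and FTH1 in combo on the right.

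Other genes of these pathways were read at their strongest promoter region, for 4 lists of 106 genes in all, of which 85 had such a region. In osi_DTP against DMSO none passed by edgeR (7 had an unadjusted p under 0.05), where 4.63% of all promoter regions did. By DESeq2 1 passed, where 7.67% of all promoter regions did. In combo against DMSO 2 passed by edgeR, against the 8.51% of all promoter regions given above. Without combo replicate 3, 7 passed in osi_DTP (BLVRA, SESN2, MSRA, MSRB3 and CHAC1 higher, ABCC3 and AKR1B10 lower), beside 14.3% of all promoter regions. In that fit 6 passed in combo (BACH1, AKR1C3 and GGT1 higher, ABCC3, AKR1B10 and MSRB1 lower), beside 17.8% of all promoter regions. With all libraries, 0 of 14 regulators and partners of NRF2, among them KEAP1, BACH1 and the small MAF genes, passed in either comparison with DMSO. KEAP1 had 42.5 ± 7.60 CPM in DMSO (SD, n = 3), 61.5 ± 41.4 in osi_DTP and 85.4 ± 48.2 in combo. BACH1, a repressor that competes with NRF2 for its elements, had 9.09 ± 1.82, 16.7 ± 1.38 and 24.1 ± 2.92, with a log2 fold change of 1.40 ± 0.50 (adjusted p = 0.058) in combo, and passed without combo replicate 3 (1.29, adjusted p = 0.024).

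Of 25 other NRF2 target genes with a promoter region, 1 fell in combo against DMSO, the aldo-keto reductase gene AKR1B10 (-1.78 ± 0.61, adjusted p = 0.049), from 6.86 ± 2.84 to 2.00 ± 1.06 CPM (SD, n = 3). AKR1C3 had 2.12 ± 0.75 (adjusted p = 0.058) in that comparison and rose without combo replicate 3 (2.63, adjusted p = 0.00040). SLC7A11, the cystine importer that feeds glutathione synthesis, had 15.4 ± 3.87, 13.7 ± 3.81 and 12.8 ± 8.24 in DMSO, osi_DTP and combo. Of 20 other antioxidant enzymes 1 rose in combo against DMSO, GGT1, which breaks down extracellular glutathione (2.21 ± 0.54, adjusted p = 0.011), with 2.37 ± 0.89, 2.42 ± 0.06 and 11.03 ± 2.08 CPM in the 3 groups. Of 26 genes of ferroptosis and iron handling none passed in either comparison, and without combo replicate 3 CHAC1, which degrades glutathione, rose in osi_DTP (1.52, adjusted p = 0.023). ACSL4, which makes the lipids that are peroxidised, had 25.8 ± 5.62, 40.8 ± 28.6 and 52.9 ± 33.2. The median log2 fold change of the 85 was 0.53 in osi_DTP and 0.54 in combo, and in combo it was 0.14 without combo replicate 3.

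Peaks in the authors' list for each library overlapped 72 to 87 of the 92 member regions by at least 1 base, which is 78.3% to 94.6%, against 64.1% to 85.0% of all annotated regions. The member share was the lower one in DMSO replicates 2 (79.3% against 82.7%) and 3 (78.3% against 81.2%). It was also lower in osi_DTP replicates 1 (79.3% against 84.2%) and 2 (82.6% against 84.9%), and higher in the other libraries. Each list matched best the count column of its own label. Of the 23 promoter regions 20 held a peak in all 9 libraries, and the others in at least 7. Of the 69 distal regions 27 did, and the fewest libraries with a peak was 3, at upstream regions of HMOX1 and FTH1 that held peaks in the DMSO libraries.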

How the data were processed

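H3K27ac ChIP-seq libraries (3 per group) and 1 pooled input were used. The submitters' processing notes name hg38, BWA 0.7.17, MACS2 2.2.6, featureCounts 2.0.0 and ChIPseeker 1.29.1, an annotation tool that gives a region to the gene with the nearest start. How regions, duplicates and filters were set is not given in the sources used here. Regions held at most 1148 reads, near the 1152 that 1 read per position and strand allows. The deposited count tables hold raw read counts per region, and the annotated table holds part of the rows of the full one. The deposited peak list of each library gives a fold enrichment and the -log10 p and q of the peak caller; its threshold is not given in the sources used here.

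Counts of the full table were filtered (filterByExpr, minimum count 10), TMM-scaled and tested with edgeR 4.0.16 (R 4.3.3; quasi-likelihood test, robust, 1 fit of all 9 libraries), with Benjamini-Hochberg adjustment over 157919 regions and a threshold of 0.05. The depth was 6263443 to 10463351 counts per library, so regions of few reads are the least precise. The labels call the replicates biological. No 2 libraries of a group agreed within sampling noise (pairs across groups were not compared). The script was tested on simulated counts. Sums per gene were fitted in the same way. Alternatives were no TMM, a loess offset (limma 3.58.1), no filter, annotated regions only, pairwise fits, DESeq2 1.42.0, a replicate block, a threshold of 0.01, a promoter class of 3 kb, stricter peak overlap and each library left out; a saturation correction and both promoter-rich libraries left out were added after seeing the data.

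Deviations from the group means of same-numbered osi_DTP and DMSO libraries correlated at 0.334, 0.355 and 0.324, so the numbers were taken to pair these groups. The main fit takes only a mean per group. Its SE and adjusted p values for osi_DTP against DMSO therefore ignore this pairing, which enters only where the replicate block is named. That block was fitted to all 9 libraries, so it also grouped the combo libraries by number. The rule for naming took all 10 members, the strongest promoter and distal region of each by mean CPM, regions past the threshold (with combo replicate 3 left out, given by stretch) and at most 6 other pathway genes past it per comparison. KEAP1, BACH1, SLC7A11 and ACSL4 were named for their roles, and BLVRA, SESN2, MSRA, MSRB3, CHAC1, ABCC3, AKR1C3 and MSRB1 for passing without combo replicate 3, after their values were seen. Members and gene lists were chosen with earlier results of these data known, and stretches of neighbouring regions were grouped after seeing values and carry no test of their own.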

Additional observations from a re-analysis of the deposited data

How the results depend on the processing

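Over 90 results at single regions, 1296 alternative values kept direction and side of the threshold, 131 lost a call, 137 gained one and 56 changed sign. The count of member regions in osi_DTP against DMSO (7) became 3 without TMM, 23 with the libraries of both groups alone, 14 with DESeq2, 1 at a threshold of 0.01 and 26 with both promoter-rich libraries left out (7.75%, 26.4%, 15.9%, 2.39% and 26.9% of all regions), and lay between 0 and 22 with single libraries left out. In combo against DMSO (17) it became 11, 33, 3 and 53 under the last 4 of these (11.4%, 22.8%, 6.21% and 42.6% of all regions) and lay between 1 and 37. In combo against osi_DTP it was 0 except for 2 with both left out. With the replicate block, 13 and 26 members passed against DMSO (10.4% and 17.5% of all regions), the GCLM promoter had -0.10 in combo against DMSO and the second TXNRD1 start -0.0034 in osi_DTP against DMSO, 1 call was lost (the first TXNRD1 start), and the counts of gene sums did not change. Same-numbered combo libraries correlated at 0.243, 0.026 and -0.240 with osi_DTP and at -0.018, 0.553 and 0.362 with DMSO, so the numbers were not taken to pair them. The replicate block still grouped them by number, and its combo values rest on that grouping. Of promoter sums, 0 to 1 passed in osi_DTP against DMSO and in combo against osi_DTP with single libraries left out. Of all genes, 0.0895% to 14.4% and 0% to 2.05% did. With both left out 1 passed in each (17.7% and 2.50% of genes). In combo against DMSO the 2 became 0 without TMM (5.24% of genes), 4 with both left out (37.6%) and 0 to 4 with single libraries left out (4.20% to 24.7%). Of distal sums, the 1 in osi_DTP became 2 with both left out (43.9% of genes) and 0 to 2 singly (16.8% to 48.9%). The 3 in combo became 5 with both left out (54.8%) and 1 to 5 singly (24.8% to 52.6%). The cause of these changes was not tested.

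Scaling moved the all-region median (log2): without TMM from 0.23 to -0.02 in combo against DMSO and from 0.06 to -0.10 in combo against osi_DTP, and with the loess offset to 0.35 and 0.23. Values at leading promoters that changed sign were, in osi_DTP against DMSO with both promoter-rich libraries left out, NFE2L2 -0.14, TXNRD1 -0.22, SRXN1 -0.80, GPX4 -0.16 and FTL -0.087, and in combo against DMSO HMOX1 -0.16 and GCLM -0.83. Without TMM they were NQO1 -0.089, HMOX1 -0.17 and GCLM -0.28 in combo against DMSO and TXNRD1 -0.092 in osi_DTP. With the loess offset they were NQO1 -0.32 and HMOX1 -0.032 in combo and TXNRD1 -0.22 and GPX4 -0.10 in osi_DTP. With annotated regions alone they were GCLM -0.024 in combo and TXNRD1 -0.043 in osi_DTP, and with DESeq2 TXNRD1 had -0.12. HMOX1 in osi_DTP had 0.072 without the filter, 0.033 in the pairwise fit and 0.081 with the saturation correction. With single libraries left out, osi_DTP against DMSO ranged from -0.11 to 1.09 for NFE2L2, -0.48 to 0.025 for NQO1, -0.59 to 0.38 for HMOX1, -0.19 to 0.26 for TXNRD1, -0.78 to 1.09 for SRXN1, -0.13 to 0.41 for GPX4 and -0.058 to 0.70 for FTL. Combo against DMSO ranged from -0.023 to 0.32 for NQO1, -0.25 to 0.27 for HMOX1 and -0.91 to 0.35 for GCLM. Combo against osi_DTP ranged from -0.51 to 1.24 for NFE2L2, -0.27 to 0.69 for HMOX1, -0.62 to 1.39 for GCLC, -0.43 to 1.28 for GCLM, -0.40 to 1.67 for SRXN1, -0.048 to 1.18 for FTH1 and -0.12 to 0.64 for FTL.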
